A study of Mus musculus with 20 samples.

Results

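The mouse apolipoprotein L (Apol) genes form a cluster of close paralogs on chromosome 15, and 10 of them are described here: Apol7a, Apol7b, Apol7c, Apol9a, Apol9b, Apol10a, Apol10b, Apol10c-ps, Apol11a and Apol11b. They were found by gene symbol among the 35204 genes of the count table, and all 10 were among the 16306 genes tested. The list was chosen by the measured response of these genes to the diet in these same libraries, so the diet effects below are a description, no p-value is given for them, and a call only marks the size of a member's difference beside its spread. A further 4 genes of the family or with a related name were in the table (Apol6, Apol7e, Apol8 and Apold1), and they are given beside the 10.

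Terminal ileum was taken from 20 female C57Bl6 mice, with no engineered allele named and, by the study's methods, 7 weeks old when feeding began, after 3 weeks on a control diet (CD) or a tryptophan-deficient diet (TDD). On each diet, 5 mice kept their microbiota (specific pathogen-free, SPF) and 5 received an antibiotic cocktail (ABX) of ampicillin, vancomycin, gentamycin, metronidazole and neomycin, which gave 4 groups named CD, TDD, CD+ABX and TDD+ABX. Poly-A RNA from 1 piece of tissue per mouse was sequenced, and totals ranged from 36676963 to 58662617 estimated counts per mouse (median 47553758). Levels are given in 2 units: counts scaled to a common library size with TMM factors (CPM), for comparing 1 gene between mice, and TPM, which are corrected for transcript length as well and serve to compare genes with each other.

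Proteins of the apolipoprotein L family carry amphipathic and membrane-inserting stretches that resemble those of bacterial pore-forming colicins and of the Bcl-2 family. Unlike the classical apolipoproteins of chylomicrons, most of them lack a signal peptide and act inside cells. The human APOL1 protein, which is secreted, lyses trypanosomes, and several members in man and mouse are switched on by interferons through interferon-stimulated response elements, whose core is a tandem repeat of GAAA bound by STAT and IRF factors. Rodents carry their own expanded set, and the cellular function of several of its members is unknown.

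The promoters of the cluster are shown here because several members share sequence there, both members that were lower on TDD and members whose groups overlapped. RefSeq promoter windows (GRCm38.p6, 250 bases before to 50 bases after each annotated start) were at hand for 9 of the 10 members, in 11 windows. A tandem repeat of GAAA with 2 bases between (GAAANNGAAA, searched on both strands and here read as TTTC on the strand of the gene) was found in 7 of the 9, namely Apol7c, Apol9a, Apol9b, Apol10a, Apol10b, Apol11a and Apol11b, and in Apol7e. Of all 32851 windows of this length, 3.44% held it. Of the windows of listed targets, 69.6% did for type I and III interferons and 61.5% for interferon gamma. Each stretch below is read 5′ to 3′ on the strand of its gene, starting 30 bases before the match and ending 20 bases after it, with the match in capitals.
Apol10a: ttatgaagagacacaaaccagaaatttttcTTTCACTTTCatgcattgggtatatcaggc
Apol11a: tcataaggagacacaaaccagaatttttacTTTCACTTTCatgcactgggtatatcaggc
Apol11b: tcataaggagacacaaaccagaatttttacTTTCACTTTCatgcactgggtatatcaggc
Apol10b: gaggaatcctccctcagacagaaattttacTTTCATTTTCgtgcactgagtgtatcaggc
Apol9a: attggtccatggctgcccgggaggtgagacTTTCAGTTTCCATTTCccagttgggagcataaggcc
Apol9b: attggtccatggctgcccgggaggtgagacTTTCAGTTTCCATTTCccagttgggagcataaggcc
Apol7c: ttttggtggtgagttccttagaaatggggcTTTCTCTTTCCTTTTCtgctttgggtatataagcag

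The stretch of Apol10a lies at chr15:77476966-77477025 on the plus strand, that of Apol11a at chr15:77508189-77508248 (plus) and that of Apol11b at chr15:77643307-77643366 (minus). The stretches of Apol11a and Apol11b were identical over all 60 bases, and that of Apol10a matched them in 90.0% of positions. The stretch of Apol10b (chr15:77596100-77596159, minus) matched that of Apol10a in 65.0%. Its match straddles the annotated start, at positions -4 to 6, where those of Apol10a, Apol11a and Apol11b begin 50 or 51 bases before it. Apol9a (chr15:77411104-77411169, minus) and Apol9b (chr15:77729005-77729070, plus) carried 2 overlapping matches each in stretches that were identical over 66 bases, and Apol7c (chr15:77533335-77533400, minus) also carried 2. A STAT site (TTCNNNGAA) was found in the windows of Apol10a, Apol11a and Apol11b, 241 bases before the start in each, and in 8.3% of all windows. Among windows of listed targets, 17.4% held it for type I and III interferons and 38.5% for interferon gamma. The core of the dioxin response element, GCGTG, which the aryl hydrocarbon receptor binds, was found among the members in the window of Apol7b only, and in 32.4% of all windows. These matches describe the letters of paralogs that share sequence by duplication, and binding was not measured.

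On GENCODE M21 coordinates (GRCm38), the 10 genes span 348.2 kb, chr15:77388219-77736382, with 3 on the plus strand and 7 on the minus strand. In order of position they are Apol7a, Apol9a, Apol7b, Apol10a, Apol11a, Apol7c, Apol10b, Apol11b, Apol10c-ps and Apol9b. All are annotated as protein-coding except Apol10c-ps (ENSMUSG00000116383.1), a transcribed unprocessed pseudogene at chr15:77656001-77659841. Because the genes are paralogs, reads can be shared between them and the software divides such reads by likelihood. Of the 31-base stretches in its transcripts, Apol7b shared 82.9% with other genes (79.4% with Apol7e), Apol9b shared 64.9% with Apol9a, Apol10c-ps shared 51.7% with Apol10a, and Apol10b shared 11.8%, the lowest share of the 10. Over the coding sequences, Apol9a and Apol9b were identical in 98.5% of aligned columns and Apol7b and Apol7e in 98.9%. Apol7e, outside the list, shared 83.4% (80.2% with Apol7b). Levels of Apol7b and Apol7e are therefore uncertain, as is the division of reads between Apol9a and Apol9b and between Apol10c-ps and Apol10a.

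The label of the tissue was checked against markers, and libraries that stood apart were looked for, before the effects were read. Vil1, a brush border gene, lay at 3679 ± 685 CPM and Fabp2 at 2849 ± 536 CPM in CD mice (SD, n = 5). Fabp6 and Slc10a2, the bile acid carriers that define the distal ileum, were low without ABX, at 1.17 ± 0.97 and 2.36 ± 1.02 CPM on CD and 1.40 ± 1.58 and 5.89 ± 1.98 CPM on TDD (SD, n = 5). With ABX they lay at 41.6 ± 59.4 and 39.5 ± 27.3 CPM on CD and 20.1 ± 13.6 and 37.1 ± 16.7 CPM on TDD (SD, n = 5). Of the 4 colon markers looked at, Car1 was at 0 counts in all CD mice, while Mettl7b, the most abundant, lay at 30.1 ± 4.4 CPM, Aqp4 at 11.4 ± 1.6 and Slc37a2 at 2.64 ± 0.30 (SD, n = 5). The 4 summed to 44.1 ± 3.4 CPM in CD, 48.0 ± 4.2 in TDD, 42.2 ± 4.8 in CD+ABX and 42.4 ± 4.7 in TDD+ABX mice. The part of ileum sampled and the ABX effect on these carriers cannot be told apart here.

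One library stood apart for the family. In CD mouse 2, Apol9a was at 14.33 CPM where the other 4 CD mice lay between 107.3 and 138.0 CPM, Apol9b was at 10.28 CPM against 70.59 to 108.4, and Apol7a was at 50.34 CPM against 161.6 to 214.1. All members except Apol7c were lowest in this mouse among the 5 CD mice, that is 9 of 10, as were 33.28% of all genes tested. Its summed level of 28 type I and III interferon targets was 916.9 CPM against 1971 to 3264 CPM in the other CD mice, its 10 enterocyte markers summed to 7366 CPM against 10690 to 12910, its 16 listed genes of the other apolipoproteins (Apobr and Apobec1 among them) to 7574 CPM against 20070 to 25770, and its 4 smooth muscle markers to 2013 CPM, the highest of the 20 mice. CD mouse 5 held pancreatic acinar RNA, with 130.3 CPM summed over 5 markers where no other mouse exceeded 0.8266 CPM. Where leaving out CD mouse 2 changed a call or a value of a member by much, the value without it is given as well. In bulk tissue, fewer cells of a type and less RNA per cell cannot be told apart.

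Per length, Apol10a was the most abundant member, at a mean of 248.9 TPM over the 20 mice. Apol7a (90.97 TPM), Apol9a (79.27), Apol10c-ps (65.46) and Apol9b (61.82) followed, whereas Apol7c lay at 18.57 TPM, Apol10b at 6.966, Apol7b at 6.613, Apol11b at 1.582 and Apol11a at 0.7286. The mice ranged from 37.01 to 145.8 TPM for Apol7a, from 12.68 to 119.4 for Apol9a, from 15.11 to 175.4 for Apol10c-ps and from 10.3 to 112.9 for Apol9b, so the order among these 4 did not hold beyond their spread, nor did that of Apol10b and Apol7b. Summed over the 10 members, the family held 847.9 ± 198.4 TPM in CD, 415.5 ± 63.2 in TDD, 648.9 ± 81.4 in CD+ABX and 411.3 ± 55.0 in TDD+ABX mice (SD, n = 5 each). Apol10a made up 45.7% of that sum in CD mice and 38.7%, 49.3% and 34.3% in the other groups in the same order.

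TDD feeding was compared with CD to see which genes of the ileum follow dietary tryptophan, first with the microbiota in place and then under ABX. Within the family, the response split by gene. Apol10a, Apol10b, Apol10c-ps, Apol11a, Apol11b and Apol7c were lower on TDD, whereas for Apol7a, Apol7b, Apol9a and Apol9b the groups overlapped. In SPF mice, 6 of the 10 members were called lower, which means an adjusted p-value (Benjamini-Hochberg) under 0.05 by edgeR and at least a 2-fold difference, where 0.993% of all genes tested were, and these 6 were also the members whose CD and TDD mice did not overlap in CPM (4.9% of all genes tested lay lower without overlap). In ABX-treated mice, 5 of 10 were called lower against 0.159% of all genes and the same 5 did not overlap, against 2.43%. Since the diet effect chose the list, nothing is read from these shares. Over the 10, the median log2 fold change was -1.12 without ABX, where that of all genes tested was 0.01, and -1.04 with ABX, where that of all genes was -0.003.

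**Figure D1:**
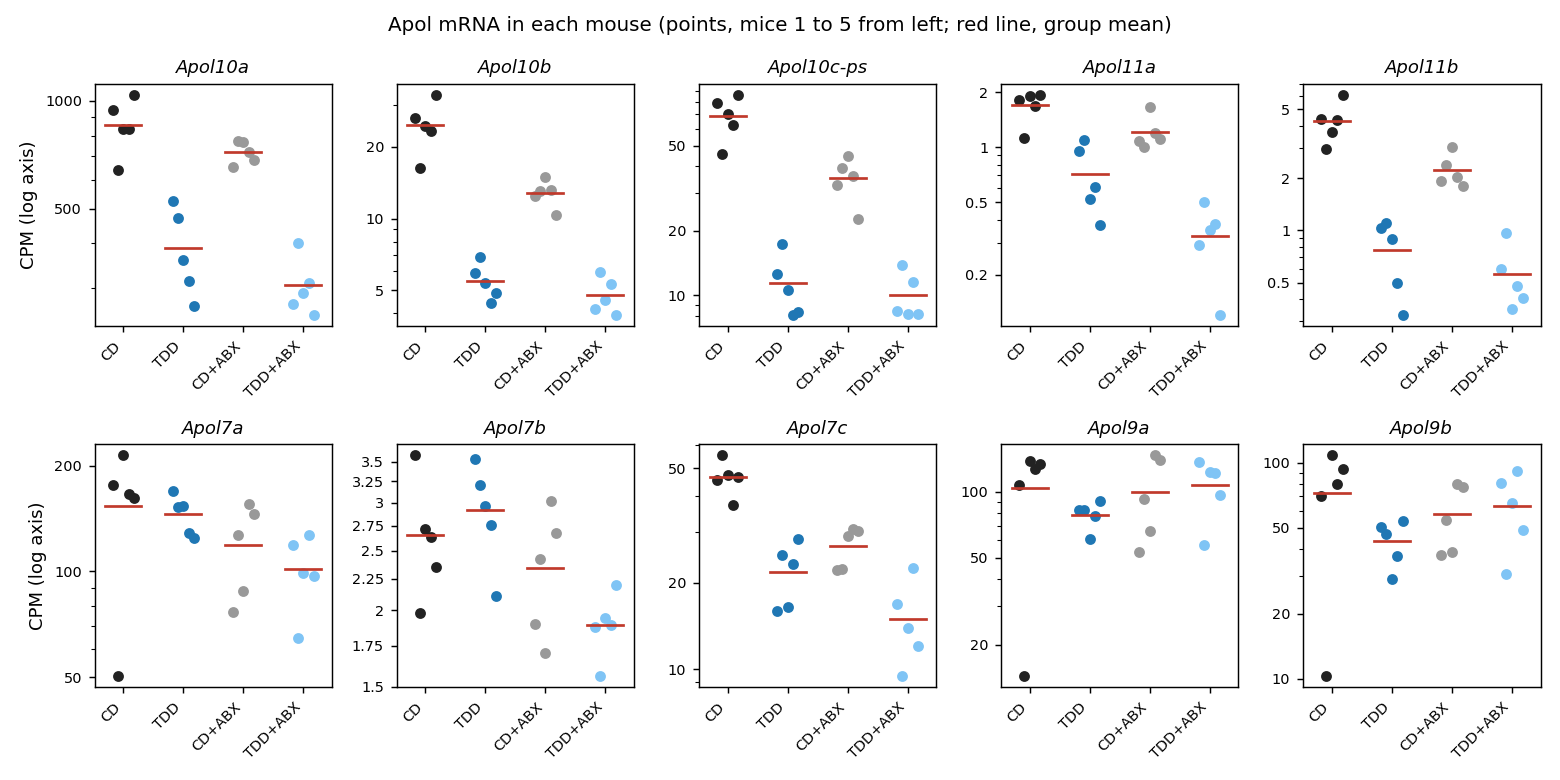
CPM of each Apol gene (log axis, its own range in each panel) in each of the 20 mice, by group; points are mice 1 to 5 from left to right and red lines are group means. In the upper row every TDD point lies under every CD point of the same ABX setting, and in the Apol7a, Apol9a and Apol9b panels CD mouse 2 is the lowest point of all.

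Apol10a (ENSMUSG00000050982.13, chr15:77477047-77491069), the gene with the largest share of the family's RNA, lay at 945.2, 640.7, 832.5, 835.0 and 1041 CPM in the 5 CD mice and at 525.1, 471.1, 358.9, 314.4 and 266.2 CPM in the 5 TDD mice. Under ABX it lay at 655.4, 774.1, 769.5, 719.6 and 682.2 CPM on CD and at 271.1, 401.6, 290.0, 309.4 and 251.3 CPM on TDD. The highest TDD mouse was thus under the lowest CD mouse in both settings. The log2 fold change was -1.15 (standard error 0.17) without ABX and -1.24 (0.17) with it.

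Apol10b (ENSMUSG00000050014.8, chr15:77583819-77596125) was much less abundant and its difference was larger. It was at 26.48, 16.26, 24.48, 23.24 and 33.03 CPM on CD and at 5.923, 6.876, 5.365, 4.404 and 4.895 CPM on TDD. With ABX it was at 12.37, 13.05, 14.97, 13.12 and 10.39 CPM on CD and at 4.195, 5.965, 4.569, 5.314 and 3.926 CPM on TDD. The 5 CD mice lay above all CD+ABX mice, while the TDD groups with and without ABX overlapped. For the diet, the log2 fold change was -2.17 (0.17) in SPF mice and -1.41 (0.16) under ABX.

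The pseudogene Apol10c-ps followed Apol10b mouse by mouse, with a Pearson r of 0.993 in log2 CPM over the 20 mice, which share their group structure. It lay at 79.13, 45.74, 70.01, 62.19 and 86.39 CPM on CD and at 12.57, 17.33, 10.65, 8.065 and 8.397 CPM on TDD. In ABX-treated mice it lay at 32.77, 39.45, 44.86, 36.17 and 22.78 CPM on CD and at 8.473, 13.91, 8.167, 11.54 and 8.211 CPM on TDD. Its log2 fold change of -2.59 (0.24) in SPF mice was the lowest of the 10, and under ABX it was -1.80 (0.23). The gene has 2 annotated transcripts, and the longer of them (841 bases) made up 59.9% ± 1.6 of its TPM on CD and 69.9% ± 2.7 on TDD, and 60.2% ± 1.8 and 66.6% ± 4.0 on the same diets with ABX (SD, n = 5).

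Apol11a (ENSMUSG00000091650.2, chr15:77508271-77518051) and Apol11b (ENSMUSG00000091694.9, chr15:77633946-77643286), whose coding sequences were identical in 93.6% of alignment columns, gaps included, were the least abundant members. Apol11b was at 4.381, 2.955, 3.691, 4.336 and 6.084 CPM on CD and at 1.029, 1.1, 0.8907, 0.4954 and 0.3229 CPM on TDD, and with ABX at 1.919, 2.374, 3.03, 2.044 and 1.81 CPM on CD and 0.5993, 0.9608, 0.3515, 0.4777 and 0.407 CPM on TDD. The diets were apart in both settings, with log2 fold changes of -2.48 (0.31) and -1.99 (0.31). Apol11a was at 1.818, 1.117, 1.915, 1.675 and 1.937 CPM on CD and at 0.9537, 1.1, 0.5178, 0.6055 and 0.3739 CPM on TDD, so that the lowest CD mouse and the highest TDD mouse nearly met. With ABX it was at 1.081, 1.007, 1.659, 1.187 and 1.113 CPM on CD and at 0.2893, 0.5004, 0.3515, 0.3781 and 0.1197 CPM on TDD, and the log2 fold changes were -1.26 (0.29) and -1.86 (0.31). These values rest on 5 to 96 counts per mouse for Apol11a and 17 to 289 for Apol11b. With limma on log2(TPM + 1), a scale that understates changes of low genes, the diet values were -0.60 and -0.60 for Apol11a and -1.30 and -0.91 for Apol11b without and with ABX, so that Apol11a in both settings and Apol11b under ABX were then short of 2-fold.

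Apol7c (ENSMUSG00000044309.8, chr15:77524852-77533316), a member known from dendritic cells, was at 45.57, 55.37, 47.52, 37.35 and 46.71 CPM on CD and at 15.89, 25.01, 16.43, 23.23 and 28.35 CPM on TDD. With ABX it was at 22.1, 22.23, 29.08, 30.81 and 30.21 CPM on CD and at 16.88, 9.468, 13.96, 22.47 and 12.09 CPM on TDD. Only without ABX were the diets apart; with ABX the highest TDD mouse lay just above the lowest CD mouse. The log2 fold changes were -1.09 (0.20) and -0.84 (0.20), which are a 2.133-fold difference in SPF mice, just inside the limit, and a 1.795-fold one under ABX, just outside it. Without TDD mouse 1, its SPF value was -0.999, short of that limit, and 5 members were called. Of 7 conventional dendritic cell markers, 1 was called lower by the diet in SPF mice (Cd209a, median of the list -0.10), against 0.993% of all genes, and without CD mouse 2 it was 0 of 7. They summed to 45.9 ± 5.3 CPM in CD and 38.6 ± 7.2 CPM in TDD mice, with Itgax the most abundant and none at 0. The 7 macrophage markers were all lower on TDD in SPF mice (median -0.50), where 47.3% of all genes were. Of them, 6 were lower at an adjusted p-value under 0.05 by edgeR, where 7.71% of all genes were, and 0 were called. They summed to 205.1 ± 21.5 CPM in CD, 148.5 ± 24.0 in TDD, 143.9 ± 11.5 in CD+ABX and 117.4 ± 5.9 in TDD+ABX mice (SD, n = 5), with C1qa the most abundant per length (54.4 TPM) and none at 0. Of 4 plasma cell markers, 0 were called by the diet in SPF mice, but 3 (Jchain, Mzb1 and Derl3) were higher at an adjusted p-value under 0.05 by edgeR, where 6.65% of all genes were, with a list median of 0.74. Whether the number of any of these cells had a part in the Apol values was not tested.

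Apol9a (ENSMUSG00000057346.12, chr15:77403789-77411135) and Apol9b (ENSMUSG00000068246.6, chr15:77729039-77736382) are interferon-induced genes that lie near opposite ends of the cluster and whose products bind phosphatidylethanolamine. Apol9a was at 107.3, 14.33, 138.0, 127.0 and 134.4 CPM on CD and at 82.24, 82.33, 60.59, 77.32 and 90.58 CPM on TDD. Apart from CD mouse 2, all CD mice were above all TDD mice. Under ABX, Apol9a lay at 53.15, 92.97, 66.42, 146.7 and 140.2 CPM on CD and at 137.3, 56.85, 123.0, 122.4 and 96.76 CPM on TDD, with full overlap. For Apol9a the log2 fold change was -0.41 (0.42) in SPF mice and 0.10 (0.41) under ABX, and for Apol9b -0.74 (0.43) and 0.13 (0.42). Without CD mouse 2, the SPF values were -0.70 (0.28) for Apol9a and -1.03 (0.30) for Apol9b, and Apol9b joined the members called lower, which made 7 of 10.

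Apol7a (ENSMUSG00000010601.14, chr15:77388219-77399110) and Apol7b (ENSMUSG00000068252.6, chr15:77422209-77447492) showed no separation by diet. Apol7a ranged from 50.34 to 214.1 CPM on CD and from 124.3 to 169.5 CPM on TDD, with a log2 fold change of -0.08 (0.28). This became -0.31 (0.20) when CD mouse 2 was left out, and with single mice left out it ranged from -0.308 to 0.073. Apol7b ranged from 1.977 to 3.582 CPM on CD and from 2.108 to 3.539 CPM on TDD, with a log2 fold change of 0.13 (0.18). Of the TPM of Apol7b, 90.0% fell on a single transcript of 472 bases with a retained intron. Its counts weigh long transcripts more, with a count-weighted effective length of 1021 bases. Its CPM therefore mix that transcript with a coding one of 2227 bases and cannot be read as the coding transcript alone. With ABX, the log2 fold changes of the diet were -0.23 (0.28) for Apol7a and -0.31 (0.18) for Apol7b.

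The diet effect followed position in the cluster only in part. The 6 members called lower in SPF mice are contiguous among the members, from Apol10a to Apol10c-ps, with Apol7a, Apol9a and Apol7b on one side and Apol9b on the other. Inside this stretch lies Gm8221, which is not a member, a pseudogene related to Apol7c (24.8% of the 31-base stretches of Apol7c were shared with it), at -1.29 (0.28) without ABX and -0.96 (0.28) with it. Between Apol10c-ps and Apol9b lies Apol7e, a further gene outside the list, whose SPF mice were also apart by diet, at -0.60 (0.14). Outside the span of the 10, the nearest tested genes were Rbfox2, a splicing factor, at -0.01 (0.09), and Myh9, non-muscle myosin heavy chain, at -0.07 (0.08) in SPF mice. Of 48 tested genes outside the list within 1000000 bases, Apol6 and Apol7e included, Gm8221 was the 1 called in SPF mice (median of the 48, -0.04), and under ABX 0 were called (median 0.005).

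**Figure D2:**
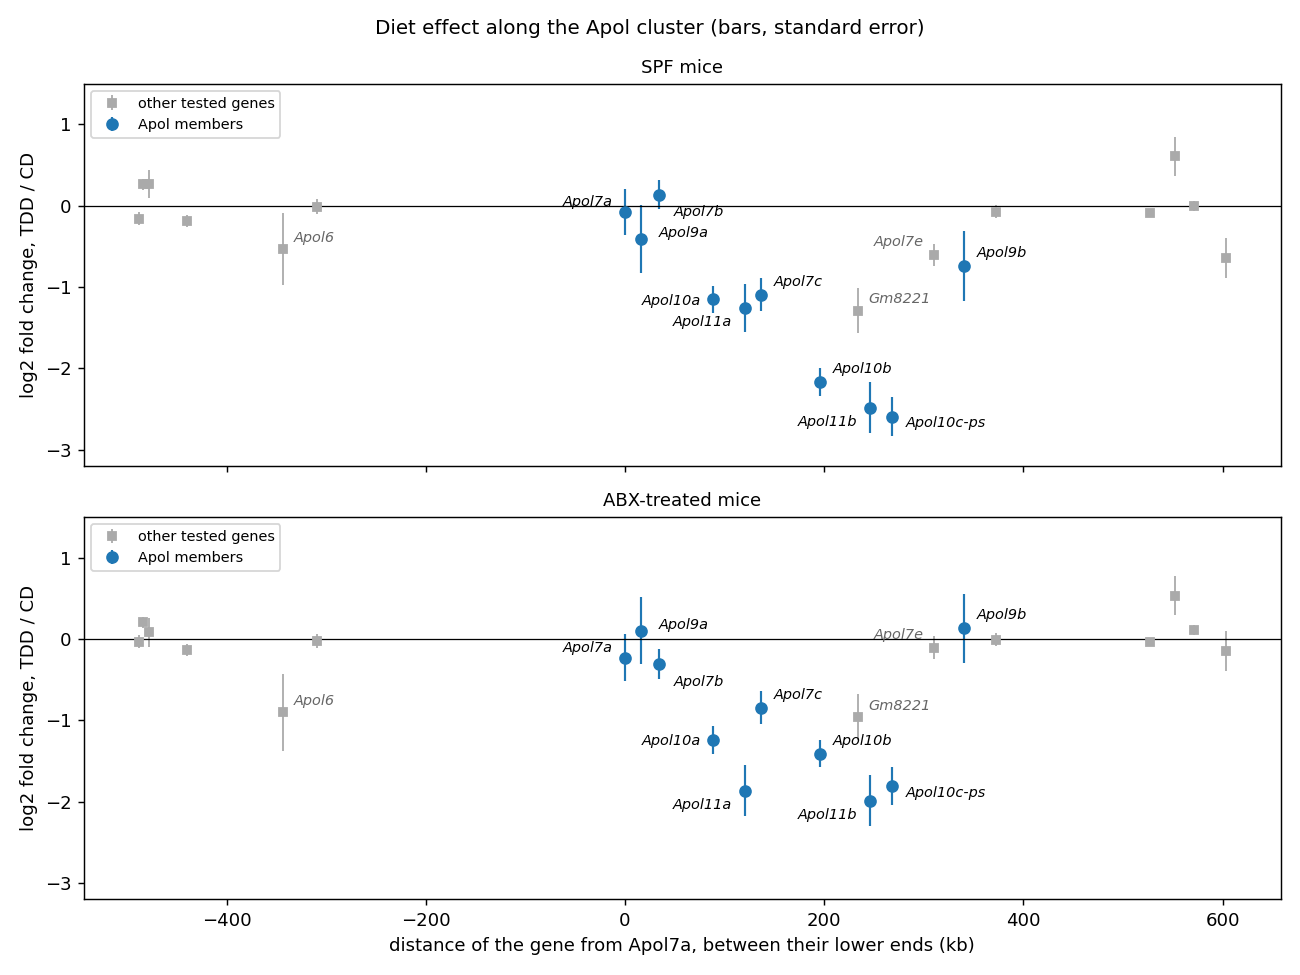
Log2 fold change of TDD over CD (bars, standard error) for the Apol members and the tested genes around them, by distance from Apol7a in kb, in SPF mice (upper panel) and ABX-treated mice (lower panel). The members from Apol10a to Apol10c-ps lie under 0 in both panels, between -0.84 and -2.59, while Apol7e lies at -0.60 in SPF mice and Rbfox2 and Myh9, outside the cluster, at -0.01 and -0.07.

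Proportions between paralogs differed by pair. The TPM of Apol10a over that of Apol10b was 26.6 ± 2.2 on CD but 52.7 ± 9.3 on TDD, and no mouse of one group reached the other (23.75 to 29.61 against 40.95 to 66.91). Under ABX it was 42.8 ± 4.3 on CD and 47.9 ± 2.5 on TDD (SD, n = 5), where the groups overlapped. Apol10c-ps over Apol10b was 10.05 ± 0.65, 7.06 ± 1.12, 9.76 ± 1.23 and 7.28 ± 0.75 in CD, TDD, CD+ABX and TDD+ABX mice. Apol9a over Apol9b was 1.17 ± 0.09, 1.41 ± 0.17, 1.32 ± 0.12 and 1.35 ± 0.18 in the same order (SD, n = 5), between 1.02 and 1.64 in all 20 mice, although both genes ranged more than 10-fold between the lowest and the highest mouse (10.24-fold and 10.54-fold in CPM).

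The antibiotics were compared with no antibiotics, averaged over both diets, a contrast that balances the diets. The list was chosen by its diet response, but with earlier results of these data known. The p-values here are therefore not those of genes fixed in advance. Of the 10 members, 6 had an adjusted p-value under 0.05 and all 6 were lower, namely Apol7b and the members listed above as lower on TDD except Apol10a (15.5% of all genes tested were lower at this threshold), but none reached a 2-fold change, so 0 of 10 were called, against 1.96% of all genes called lower. At an unadjusted p under 0.05, 8 members passed, where 39.0% of all genes did, and DESeq2 likewise called 0. The median log2 fold change was -0.51 over the 10 members and -0.02 over all genes tested.

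The clearest of these was Apol10b, at -0.57 (standard error 0.11, q = 0.00116, where q is the p-value of edgeR's quasi-likelihood fit after Benjamini-Hochberg adjustment). Apol7c fell by 0.67 (0.14, q = 0.00193), Apol11a by 0.79 (0.21, q = 0.00968), Apol10c-ps by 0.57 (0.16, q = 0.013), Apol11b by 0.69 (0.22, q = 0.0223) and Apol7b by 0.40 (0.13, q = 0.0244) on the log2 scale. Apol10a, at -0.30 (0.12), missed the threshold (q = 0.0632, edgeR), as did Apol7a, at -0.45 (0.20, q = 0.107). Apol9a and Apol9b were at 0.19 (0.29) and 0.11 (0.30), with q of 0.67 and 0.828 (edgeR). Without CD mouse 2, Apol7a and Apol10a passed as well, with q of 0.00708 and 0.0363 (edgeR).

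**Figure D3:**
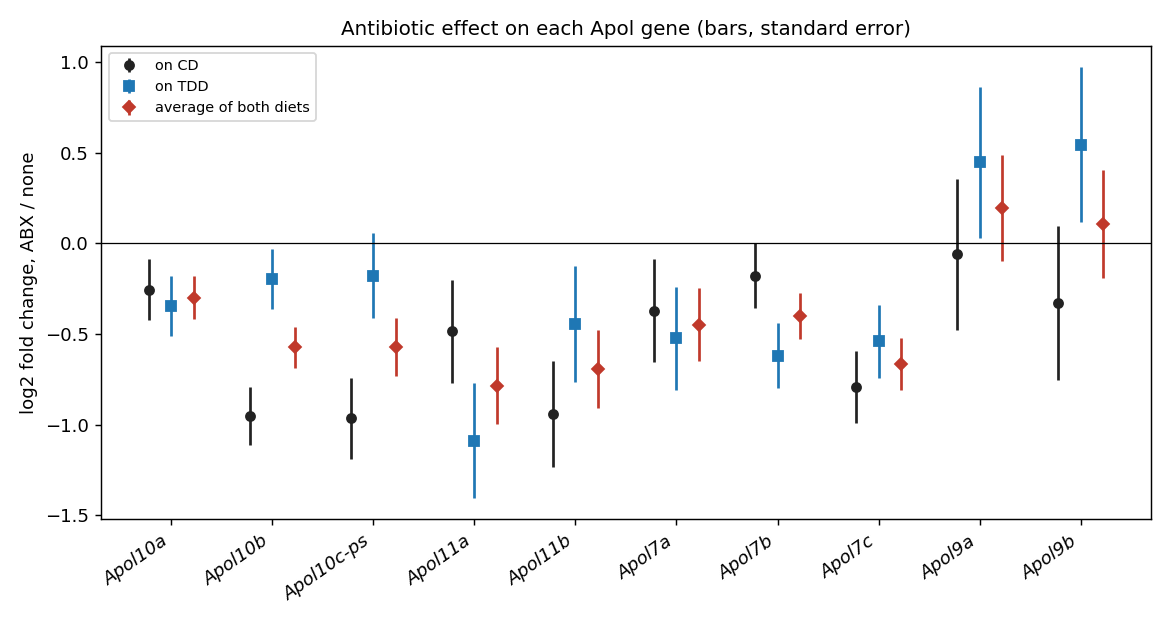
Log2 fold change of ABX over no ABX (bars, standard error) for each Apol gene on CD, on TDD and averaged over both diets. Apol10b and Apol10c-ps lie near -0.95 on CD and near -0.19 on TDD, Apol11a lies lower on TDD (-1.09) than on CD (-0.48), and the bars of Apol9a and Apol9b on CD reach across 0. Without CD mouse 2, which the figure includes, Apol9a and Apol9b on CD were at -0.34 (0.28) and -0.60 (0.30).

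By diet, the ABX difference of Apol10b was -0.95 (0.16) on CD and -0.19 (0.16) on TDD, that of Apol10c-ps was -0.96 (0.22) and -0.18 (0.23), and that of Apol11b was -0.94 (0.29) and -0.44 (0.32). Apol11a ran the other way, at -0.48 (0.28) on CD and -1.09 (0.32) on TDD. On CD, 3 members (Apol7c, Apol10b and Apol10c-ps) were lower with ABX without overlap between the groups, where 5.88% of all genes were. On TDD, 0 of 10 were, against 5.05% of all genes. By the rule for calls, 0 of 10 were called lower on CD, against 1.67% of all genes. On TDD, 1 of 10 was, Apol11a, against 1.26% of all genes. Without CD mouse 2, the differences on CD were -1.07 (0.14) for Apol10b, -1.08 (0.22) for Apol10c-ps and -1.04 (0.30) for Apol11b, each then past 2-fold and called lower. That of Apol7a was then -0.59 (0.20) in place of -0.37. Those of Apol9a and Apol9b were then -0.34 (0.28) and -0.60 (0.30), in place of -0.06 (0.41) and -0.33 (0.42), and neither was called. These per-diet contrasts share their mice with the diet contrasts. The interaction, the difference of the diet effect between ABX-treated and SPF mice, compares the same diet effects that chose the list. It is therefore given as a description, without p-values. No member was called, against 0.0245% of all genes (4 of 16306), and DESeq2 also called 0 of 10. The diet effect of Apol10b was smaller under ABX by 0.76 (0.23) on the log2 scale and that of Apol10c-ps by 0.79 (0.32), both short of a call. Without CD mouse 2, the difference for Apol10b was 0.90 (0.20), also not called. For Apol9a the difference was 0.51 (0.59) with all mice and 0.81 (0.38) without CD mouse 2. For Apol9b it was 0.87 (0.60) and 1.17 (0.41), and neither gene was called.

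Markers of several cell types moved with ABX. Averaged over the diets, 3 of 10 enterocyte markers were called higher (Fabp6, Fabp2 and Slc10a2), where 0.399% of all genes were, and 4 of 6 T cell and 5 of 6 B cell markers were called lower, where 1.96% of all genes were. Mzb1 of 4 plasma cell markers and Gp2 of 4 M cell markers were called lower as well. At an adjusted p-value under 0.05 alone (edgeR), where 15.5% of all genes were lower and 12.9% higher, 4 of 4 plasma cell, 3 of 4 M cell, 6 of 7 macrophage and 5 of 7 conventional dendritic cell markers were lower, and 3 of 3 tested tuft cell markers were higher. The dendritic cell markers, which bear on Apol7c, had a median of -0.39 and summed to 34.4 ± 1.7 CPM in CD+ABX and 33.0 ± 2.4 CPM in TDD+ABX mice (SD, n = 5), below the sums without ABX given above. Summed T cell markers were at 54.2 ± 26.1 CPM in CD mice, 37.5 ± 6.6 in TDD, 20.5 ± 2.4 in CD+ABX and 21.8 ± 6.0 in TDD+ABX mice (SD, n = 5). Summed B cell markers ranged from 4.463 to 98.83 CPM in CD mice, from 4.593 to 153.8 in TDD, from 2.338 to 7.746 in CD+ABX and from 3.742 to 105.4 in TDD+ABX mice. The part of these shifts in the ABX effect on Apol genes was not tested.

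The remaining genes of the name behaved differently from each other. Apol7e, the near-copy of Apol7b, was at 10.63, 8.631, 8.778, 13.86 and 15.85 CPM on CD and at 6.651, 7.633, 7.519, 8.202 and 8.023 CPM on TDD, a log2 fold change of -0.60 (0.14) without overlap, and under ABX the diet value was -0.11 (0.14). ABX lowered it by 0.80 (0.10) on the log2 scale in the average over both diets (q = 2.31e-05, edgeR), short of 2-fold. By diet, the ABX difference of Apol7e was -1.05 (0.14) on CD, a 2.066-fold difference, and -0.55 (0.14) on TDD, without overlap between the groups in either. Among these genes, Apol6 was the 1 called lower by ABX in the average over both diets, at -1.04 (0.33, q = 0.0221, edgeR), from a level of 0.93 ± 0.45 CPM in CD mice. Apold1, an endothelial gene related by name, was at -0.18 (q = 0.503, edgeR), and Apol8, at group means of 0.09 to 0.13 CPM, was under the filter. The classical apolipoproteins, which carry lipid in chylomicrons and plasma, were followed in a list of 16 genes, 15 of them tested, that also held Apobr, a receptor for Apob, and Apobec1, the enzyme that edits the Apob mRNA. Of the list, 0 were called lower by TDD in SPF mice and Apod was called higher, where 0.834% of all genes were, at 1.46 (0.38). Averaged over the diets, ABX lowered Apoc2 (-1.68), Clu (-1.57) and Apoa4 (-1.37), while the most abundant gene of the list, Apoa1, was at -0.18 (q = 0.342, edgeR).

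Since interferons are known inducers of several members, their pathway was followed in the same mice, from ligands to targets. Ifnb1, Ifna2 and Ifna4 had 0 counts in all 20 mice, and Ifnl2, Ifnl3 and Ifng were detected but under the filter, with a mean level of 0.107 ± 0.069 CPM for Ifng in the CD group against 0.034 ± 0.043 CPM in the TDD group (SD, n = 5 each). The 6 genes of this list that were tested are all receptor genes. By diet 0 of them were called in either setting, and Ifngr1 was the most abundant per length, at 136.1 TPM. Of 14 transducers and factors, Usp18, a brake on type I signalling that is itself a target, was called lower in SPF mice at -1.50 (0.36), and Socs3, a feedback inhibitor of cytokine signalling, was called higher at 2.03 (0.22). Of 28 targets of type I and III interferons, 17 were called lower by TDD in SPF mice (median -1.24), against 0.993% of all genes. The largest were Ifi44 at -3.35 (0.49), Oas2 at -2.77 (0.46), Zbp1, a sensor of Z-form nucleic acid, at -1.68 (0.32) and Oas1g at -1.67 (0.36), and the most abundant was Ifi27l2b at -0.86 (0.21). In ABX-treated mice 0 of 28 were called (median -0.43), although all 28 were lower, where 50.8% of all genes were. Without CD mouse 2, 2 were called, and without CD mouse 5, 1 was. The count in SPF mice rested in part on CD mouse 5, without which it was 11 (median -0.95), and without CD mouse 2 it was 19. Under the interaction test 0 of the 28 were called (median 0.54), so the difference between settings was not shown gene by gene.

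Of 22 targets of interferon gamma, 6 were called lower by TDD in SPF mice (median -0.66), against 0.993% of all genes, among them Gbp6 at -2.03 (0.27), Cxcl10 at -1.76 (0.35), Cxcl9 at -1.60 (0.23) and Igtp at -1.47 (0.27), and with Psmb8, a subunit of the immunoproteasome, the most abundant and at -0.51 (0.15). At an adjusted p-value under 0.05 alone (edgeR), 18 of the 22 were lower in SPF mice, where 7.71% of all genes were. By the same threshold, 23 of the 28 type I and III targets were. In ABX-treated mice 1 of 22 was called, Ido1, the tryptophan-degrading enzyme, at -1.57 (0.38), against 0.159% of all genes. Ido1 was also among those called lower in SPF mice, at -1.42 (0.37). Under ABX the median of the 22 was -0.35, and 21 of them were lower, where 50.8% of all genes were. The receptor Ahr and its targets, which respond to tryptophan metabolites of the host and of bacteria, had 0 of 8 tested genes called by diet in either setting. At an adjusted p-value under 0.05 alone (edgeR), Ahrr, a repressor of the receptor, at -0.63 (0.19), and Tiparp, at -0.31 (0.09), were lower in SPF mice, where 7.71% of all genes were. Nqo1, at 0.45 (0.11), was higher, where 6.65% of all genes were, and 0 of 8 passed under ABX. ABX lowered Cyp1a1 in the average over diets (log2 fold change -2.73, q = 0.005 by edgeR), from 0.37 ± 0.37 CPM in CD mice.

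Set beside these targets, the Apol members differed from each other. In ABX-treated mice, the type I and III targets had a median of -0.43 and ranged from -1.35 (Ifi44) to -0.09 (Ifih1), with Zbp1 at -1.24. In the same mice, Apol10a, Apol10b, Apol10c-ps, Apol11a and Apol11b were between -1.24 and -1.99, while Apol9a and Apol9b were at 0.10 and 0.13. With single mice left out, these 2 values ranged from -0.062 to 0.273 and from -0.04 to 0.308, so their sign was not settled. Apol9a and Apol10a, the most abundant of each kind, had a Pearson r of 0.018 in log2 CPM over the 20 mice, a description of mice that fall into 4 groups. In CD mouse 2, where the interferon targets, the enterocyte markers and the other apolipoproteins were low and the smooth muscle markers high, Apol9a was lower by 8.84-fold than the mean of the other CD mice and Apol10a by 1.43-fold. Both genes carry the tandem GAAA match shown above, as do 5 further members.

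**Figure D4:**
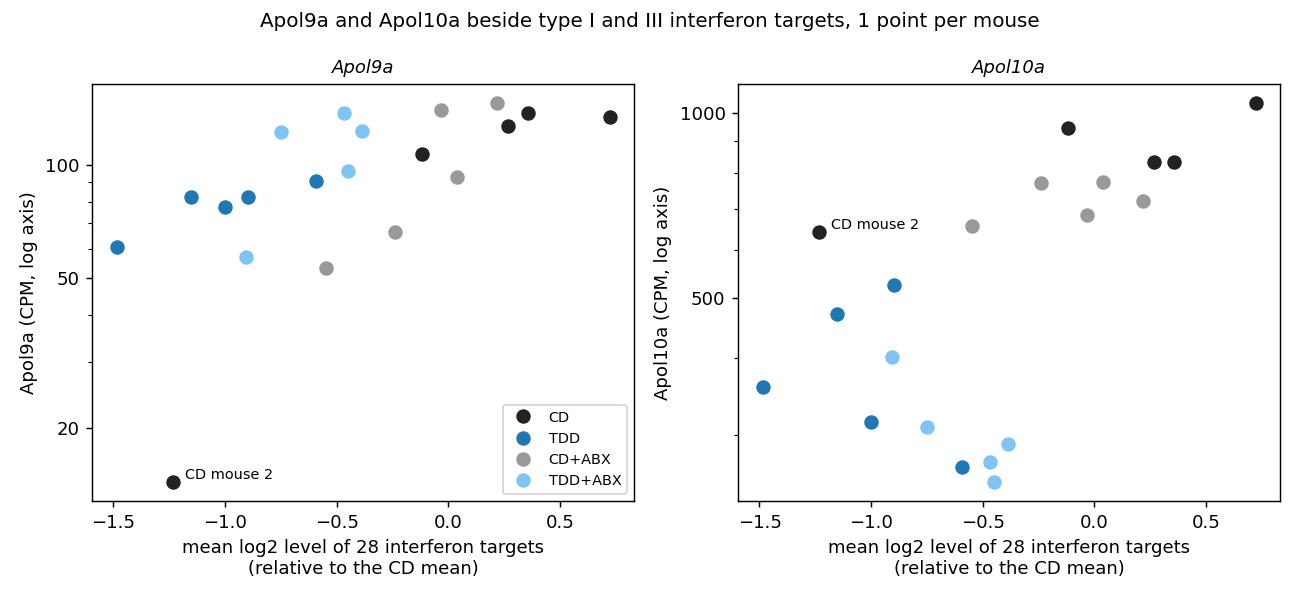
CPM (log axis) of Apol9a (left) and Apol10a (right) against the mean log2 level of 28 type I and III interferon targets relative to the CD mean, 1 point per mouse. CD mouse 2 sits with the TDD mice on the target axis and is the lowest for Apol9a, at 14.33 CPM, whereas for Apol10a, at 640.7 CPM, it lies above every mouse on TDD with or without ABX.

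The non-Apol genes most like each of the abundant members were found by Pearson r of log2(CPM + 0.5) over the 20 mice, which again share the 4 groups. For Apol10a they were Casp1, the inflammasome protease (r = 0.952), Sh3bgrl (0.944) and Olfr1416 (0.936), and for Apol10c-ps they were Casp1 (0.96), Lcmt1 (0.931) and Gm11545 (0.93). For Apol7a they were Stat6 (0.92), Jun (0.91) and Pcyt1a (0.909). Among non-Apol genes, Apol9a was closest to Slc39a9 (0.91), Bmp8b (0.898) and Ifih1 (0.889), the last a cytosolic sensor of double-stranded RNA. Casp1 lay at 163.8 CPM in CD, 113.2 in TDD, 137.7 in CD+ABX and 106.7 in TDD+ABX mice, a narrower range than that of Apol10a. Within the family, Apol10a was close to Apol11b (r = 0.965), Apol11a (0.958), Apol10c-ps (0.958) and Apol10b (0.948), and Apol9a to Apol9b (0.964). After the group means were taken away, Apol7a and Apol9a still moved together (r = 0.94), a value that includes CD mouse 2, where both were low.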

How the data were processed

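The authors assigned poly-A reads to the GRCm38 mouse transcriptome with kallisto 0.44.0, which divides a read that matches several transcripts by likelihood, so reads shared by paralogs can move between them. They deposited estimated counts per gene without normalization, written as whole numbers. Per mouse, the authors also deposited a table of transcripts with their estimated counts and their TPM, which kallisto scales by effective length and library size. Each library came from 1 mouse, so p-values measure the spread between these mice, and 0 columns were left unassigned.

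Genes that reached 0.5 CPM in 1 mouse or more were fitted in R 4.3.3 with edgeR 4.0.16 (TMM, quasi-likelihood, 4 groups in 1 fit), with Benjamini-Hochberg adjustment over all 16306 genes and calls at an adjusted p-value under 0.05 and 2-fold. Robust estimation of the quasi-likelihood dispersion, and a filter on CPM before TMM scaling, were chosen after counts of calls had been seen. limma 3.58.1 and DESeq2 1.42.0 served as alternatives, and the fit was tested on simulated data. Members and gene lists were chosen with earlier results of these data known.

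The genes named were all 10 members and the other Apol genes; for each of the 4 most abundant members, the 3 non-Apol genes with the highest Pearson r; in each list up to 4 called genes with the largest change and the most abundant gene; and the tested genes next to the cluster. Gm8221, markers and genes named to describe a list were added after their values were seen. Promoters are from RefSeq (GRCm38.p6), and shared stretches, coding identity and gene positions from GENCODE M21.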

Additional observations from a re-analysis of the deposited data

Results flagged for a closer look

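In CD mice, Apol9a was flagged because 1 of the 5 mice lay far below the rest: CD mouse 2 was at 14.33 CPM, and the nearest of the others at 107.3 CPM. In CD+ABX mice, Apol11a was flagged because mouse 3, at 1.659 CPM, lay far above the next mouse, at 1.187 CPM. Of 40 sets of 5 mice that were looked at (10 genes in 4 groups), 2 were flagged in this way, and chance flags about 1 in 20.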

How the results depend on the processing

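Under the alternatives run, the counts of members called kept within 1.5 times of the reported ones with 2 exceptions. Without a fold limit, 6 members passed for ABX averaged over the diets in place of 0, and with limma on log2(TPM + 1), 3 were called lower by TDD under ABX in place of 5. When single mice were left out, 5 (without TDD mouse 1) to 7 (without CD mouse 2) members were called lower by TDD in SPF mice, 5 to 6 (without TDD+ABX mouse 4) under ABX, and 0 for ABX averaged over the diets or for the interaction. Some small values turned sign. The interaction of Apol7b was 0.052 and that of Apol10a 0.029 with limma on log2(TPM + 0.1), and 0.044 and 0.03 on log2(TPM + 1). With single mice left out, the interaction ranged from -0.302 to 0.089 for Apol7a and from -0.211 to 0.043 for Apol10a, the averaged ABX effect of Apol9b from -0.018 to 0.202, and the diet effect under ABX from -0.062 to 0.273 for Apol9a and from -0.04 to 0.308 for Apol9b. The cause was not tested. The averaged ABX effect of Apol7b passed 0.05 in 29 of 33 alternatives (q from 0.0122 to 0.0869 by edgeR, limma or DESeq2), and that of Apol10a in 5 of 33. Over all genes, the interaction was called for 4 genes here, 51 by DESeq2 and 0 with the filter on scaled CPM or with TMM factors computed before the filter, alternatives that were chosen after seeing the data and that changed no count of members called. Replicate numbers did not pair the mice (r of same-numbered mice from -0.417 to 0.289), and with the replicate block 6 and 5 members were called lower by TDD without and with ABX, and 0 for the other contrasts. Few counts limit Apol11a and Apol11b, whose log2 fold changes by diet were -0.60 and -1.30 in SPF mice and -0.60 and -0.91 under ABX with limma on log2(TPM + 1).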
